A study of Homo sapiens with 6 samples.

Results

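The genes described here are the HOXA cluster and its partner MEIS1 in FUJIOKA cells, a human acute myeloid leukaemia (AML) line, with and without silencing of SPINK2, a small serine protease inhibitor. They are 10 genes of the 63236 in the deposited table, taken by gene symbol: HOXA3, HOXA4, HOXA5, HOXA6, HOXA7, HOXA9, HOXA10, HOXA11 and HOXA13, which are 9 genes of 1 cluster, and MEIS1. Polyadenylated RNA was sequenced in 3 shNEG libraries and 3 shSPINK2 libraries. The shNEG cells carried a scrambled hairpin in the Tet-pLKO-puro vector, the shSPINK2 cells a hairpin against SPINK2 in the same vector, and both groups were transduced with lentivirus and given doxycycline (stated as 1 µg/µl) to switch the hairpin on. The sample labels name 2 SPINK2 hairpins and the methods 1, and which library carried which is not stated, nor is the time on doxycycline before RNA was taken. Nothing states that the libraries of a group came from separate cultures, so the p-values below measure the spread between these libraries, which may be technical.

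HOX genes encode homeodomain transcription factors that lie in clusters and are read, along the cluster, in the order in which they are used along the body axis. In blood, the HOXA genes are high in stem and progenitor cells and fall as cells mature. MEIS1, with the PBX proteins, belongs to the TALE class of homeodomain factors, which bind DNA beside HOX proteins, and HOXA9 together with MEIS1 is a well known driver of AML. KMT2A (MLL) complexes hold the cluster open and Polycomb complexes close it.

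In GENCODE 44 on GRCh38 the cluster lies on the minus strand of chromosome 7. The outermost genes described are HOXA3 (chr7:27106184-27152583) and HOXA13 (chr7:27193503-27200091), with HOXA9 at chr7:27162438-27175180 and HOXA10 at chr7:27170605-27180261. MEIS1 lies on the plus strand of chromosome 2 (chr2:66433452-66573869). All 10 are protein coding genes, and the annotation packs those on chromosome 7 closely. In HOXA7, 62.5% of the exonic bases also belonged to the antisense HOXA-AS3, and in HOXA6 39.3%. In HOXA9, 15.9% were shared with genes on its own strand, a HOXA10-HOXA9 read-through gene and MIR196B, and 13.9% with the antisense HOXA10-AS. Whether the authors' counting used strand is not given in the sources used here, so reads from these shared stretches cannot be told apart and the counts of HOXA3, HOXA4, HOXA6, HOXA7, HOXA9, HOXA10 and HOXA11, and of MEIS1, which shares 13.3% with its antisense RNAs, are uncertain to that extent.

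The hairpin targets, the promoters of the members and the microRNA of the cluster are shown first, since the later results refer to them. The 21 bases that each SPINK2 hairpin was designed against are given as DNA in the sense of the SPINK2 transcript, and capitals mark the stretch that pairs with bases 2 to 8 of the guide strand.
shRNA1: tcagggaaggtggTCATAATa
shRNA2: cgccaaactgctcTCAGTATa
Both lie in coding sequence of the canonical SPINK2 transcript on the minus strand of chromosome 4 and cross a splice junction, shRNA1 from exon 3 to exon 4 (within chr4:56810168-56811688) and shRNA2 from exon 2 to exon 3 (within chr4:56811776-56820537). The capital words TCATAAT and TCAGTAT were found in the 3′ UTR of the canonical transcript of 0 of the 10 members, against 13.5% and 15.3% of the 12238 tested genes that have a 3′ UTR. MIR196B lies within HOXA9, where all 84 of its bases are also exonic bases of that gene in this annotation, and its mature 5p strand is known to pair with transcripts of HOXA genes. Its RefSeq sequence (GRCh38.p14, chr7:27169528-27169549, minus strand) is shown with the seed, bases 2 to 8, in capitals.
hsa-miR-196b-5p: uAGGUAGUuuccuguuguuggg
The complement of this seed, ACTACCT, occurred in the 3′ UTRs of 3 of the 10 members, HOXA5, HOXA7 and HOXA9, against 7.79% of the tested genes. The site of HOXA5, both sites of HOXA9 and the first of the 4 sites of HOXA7 are shown, with the word in capitals.
HOXA5 site: tattcaaACTACCTatattcc
HOXA7 site: ccaaaatACTACCTagcacag
HOXA9 site, first: gaaagaaACTACCTttttata
HOXA9 site, second: gaaggttACTACCTagggttt
MIR196B itself was listed at 0 in these libraries of polyadenylated RNA, so its mature form was not measured. The levels of the 3 genes with the word are given below.

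RefSeq gives a promoter window for 9 of the 10 members, HOXA5 being without one. The 250 bases before the start site are shown for HOXA9, which had the smallest p of the members, for its neighbour HOXA10 (the upstream of its 2 windows), and for HOXA7, which was not called. Capitals mark 5 words, searched on both strands. The core that MEIS proteins bind was searched as TGACAG and the composite word of HOX with PBX proteins as TGATTTAT. The E-box, which MYC and related factors bind, was searched as CACGTG. The word of the NF-Y factor, common in promoters of many kinds, was searched as CCAAT, and the TATA word, which general transcription factors bind, was searched as TATAAA.
HOXA9 (chr7:27165538-27165787, minus strand): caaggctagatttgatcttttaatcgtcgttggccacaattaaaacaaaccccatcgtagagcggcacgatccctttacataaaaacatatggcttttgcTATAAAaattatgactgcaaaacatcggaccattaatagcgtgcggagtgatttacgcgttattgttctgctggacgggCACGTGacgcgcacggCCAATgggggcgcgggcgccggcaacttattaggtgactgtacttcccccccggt
HOXA10 (chr7:27179862-27180111, minus strand): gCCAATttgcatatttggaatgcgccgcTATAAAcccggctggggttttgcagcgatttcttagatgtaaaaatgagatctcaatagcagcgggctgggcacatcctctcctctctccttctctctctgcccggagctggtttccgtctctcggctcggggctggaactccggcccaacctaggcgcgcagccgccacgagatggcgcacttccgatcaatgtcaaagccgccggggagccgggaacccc
HOXA7 (chr7:27156676-27156925, minus strand): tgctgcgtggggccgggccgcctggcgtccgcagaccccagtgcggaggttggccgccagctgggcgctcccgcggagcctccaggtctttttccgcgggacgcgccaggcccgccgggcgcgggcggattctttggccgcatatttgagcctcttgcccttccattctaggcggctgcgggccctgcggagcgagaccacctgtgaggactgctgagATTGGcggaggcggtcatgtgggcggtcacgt
The HOXA9 window held the E-box, the CCAAT word and the TATA word, which were in 6.34%, 32% and 10.7% of all 35116 RefSeq windows of this length. The HOXA10 window held the CCAAT and TATA words and the HOXA7 window the CCAAT word alone. Among the windows not shown, a HOXA3 window and the HOXA4 window also held the E-box. The TATA word was also in another HOXA3 window and in the other HOXA10 window. The HOX-PBX word was in no window of a member and in 0.752% of all windows, and the MEIS core was in the HOXA4 window and in 13% of all. These are matches of letters and not binding sites.

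The deposited table gives 1 mean per gene over the 6 libraries and no value per library. Whole reads per library were therefore solved from that mean and the 6 size factors, and each of the 10 members had 1 solution. A normalized count below is the number of reads divided by the library's size factor, and the libraries of a group are called a, b and c in order of falling size factor, since nothing ties them to replicate numbers. The libraries were alike in depth, with an estimated 37945723 to 38970628 counted reads each, and 32028 of 32220 genes with a count could be solved. SPINK2, the targeted gene, had normalized counts of 55.8, 63 and 53.1 in the shNEG libraries against 6.78, 8.92 and 6.09 in the shSPINK2 libraries, a log2 difference of -2.83 (SE 0.258, limma adjusted p = 1.4e-11). All 8 myeloid markers listed for the cell type had a mean of at least 10, among them CD33, MPO and SPI1, while of 13 markers of other lineages 3 did, COL1A1 and PECAM1 among them, and HBB, EPCAM and KRT18 were at 0. The summed level of the 5 myeloid markers that could be solved was 32582 to 33920 in shNEG and 40141 to 41876 in shSPINK2, but they did not move together: ANPEP (log2 difference 0.82), CD33 (0.36) and PTPRC (0.32) rose, MPO fell (-0.40, limma adjusted p = 1.6e-08) and SPI1 was at 0.05 (limma adjusted p = 0.363). That of the 10 other-lineage markers that could be solved was 259 to 265 and 297 to 309, with 1 higher (PECAM1, means 46.3 and 151) and 1 lower (COL1A1, means 180 and 118, limma adjusted p = 1.1e-05). The paper ties PECAM1 expression to a more mature myeloid state, so its place among markers of other lineages is open to doubt. The part of these marker shifts in the results below was not tested.

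FUJIOKA cells expressed the middle of the cluster strongly and its 5′ end hardly at all. Per kilobase of annotated exon, the mean normalized count over the 6 libraries was 1996 for HOXA9, 1980 for HOXA5, 1414 for HOXA10, 903 for HOXA6, 431 for HOXA7, 391 for MEIS1, 179 for HOXA3, 43.4 for HOXA4, 0.56 for HOXA11 and 0.488 for HOXA13. Of the genes with a mean of at least 10, 5.2% lay above HOXA9 on this scale and 5.23% above HOXA5. The ranges over libraries of HOXA9 (1573 to 2380 per kilobase) and HOXA5 (1751 to 2181) overlapped, as did those of HOXA11 and HOXA13, and every other neighbouring pair of the 10 in this order was apart. On this scale the first 2 places changed hands within libraries. HOXA5 was above HOXA9 in all 3 shNEG libraries (ratio of HOXA9 to HOXA5 per kilobase 0.869, 0.899 and 0.892). It was below HOXA9 in all 3 shSPINK2 libraries (1.16, 1.09 and 1.09). Before division by length the ratio was 1.53, 1.58 and 1.57 in shNEG, with HOXA9 above. The order per kilobase thus rests on all annotated exonic bases, 3033 for HOXA9 and 1720 for HOXA5, some of them shared with other genes in several members.

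**Figure D1:**
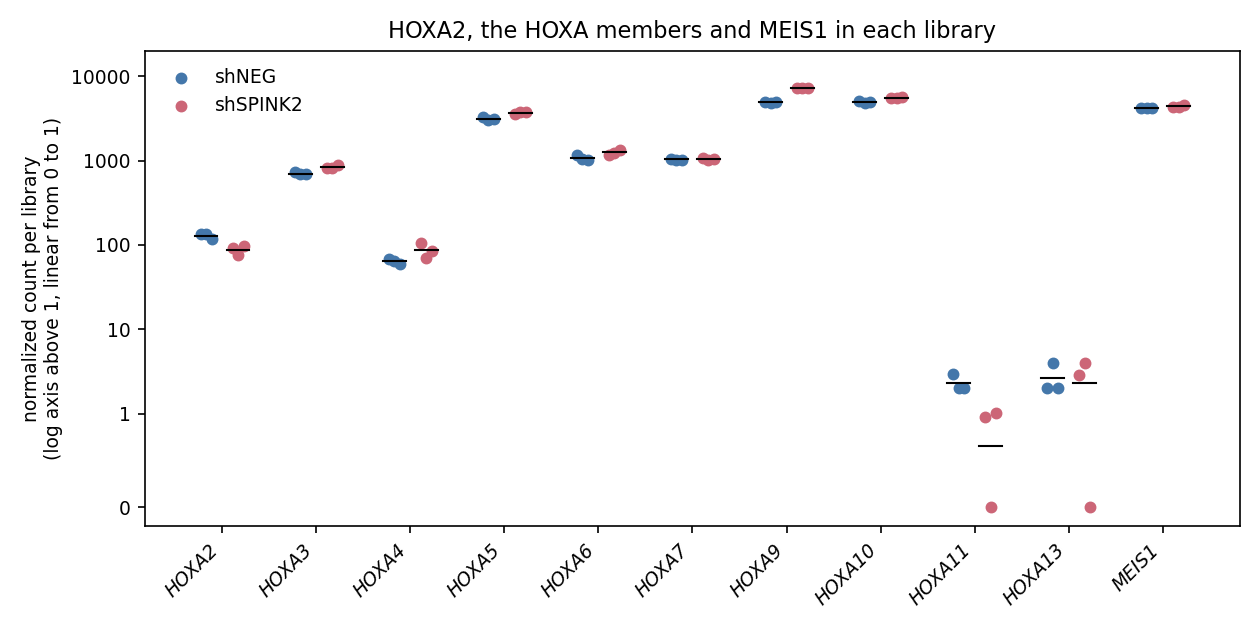
Normalized count of HOXA2, of the 9 HOXA members in the order of the cluster, and of MEIS1 in each library (y axis, log scale above 1 and linear below; points, 1 library each; black lines, group means; 3 libraries a group). HOXA5, HOXA9, HOXA10 and MEIS1 lie between 3011 and 7218, HOXA4 between 59.1 and 105, and HOXA11 and HOXA13 at 4 or below.

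Silencing of SPINK2 went with higher levels of most members that could be tested and with lower levels of none. Of the 10 members, 8 had a mean normalized count of at least 10 and were tested. Of these 8, 6 rose (HOXA3, HOXA4, HOXA5, HOXA6, HOXA9 and HOXA10), 0 fell (by limma, also 0 at an unadjusted p under 0.05 and 0 with precision weights), and 2 (HOXA7 and MEIS1) were not called at a limma adjusted p under 0.05. That threshold called 58.4% of the 15939 genes tested, 28.5% as higher and 29.9% as lower, so the 75% of the members called, all as higher, stand beside that background. The median log2 difference was 0.22 over the 8 members and 0.000 over all genes tested. The groups did not overlap in 7 of the 8, always with shSPINK2 higher, against 30.6% of all genes tested in that direction. None of the 8 differed by more than 1 on the log2 scale, the limit in the study's methods, against 4.62% of all genes tested that were called and passed it.

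HOXA9, the posterior homeodomain factor most closely tied to AML, changed most clearly. Its normalized counts were 4993, 4772 and 4954 in the shNEG libraries against 7218, 7212 and 7171 in the shSPINK2 libraries. The shSPINK2 libraries lay within a narrow band far above all shNEG libraries. The means were 4906 ± 118 (SD, n = 3) and 7200 ± 25.7 (SD, n = 3), a 1.47-fold higher level, with a log2 difference of 0.55 (SE 0.042, 95% interval 0.47 to 0.64, limma adjusted p = 1.3e-13). Of all genes tested, 19.6% had a larger absolute difference. An exact permutation test of 3 libraries against 3 gave its smallest possible value, p = 0.1, here and for the other 6 tested members whose groups were apart.

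HOXA10, the next gene towards the 5′ end and also a factor of immature myeloid cells, had almost the level of HOXA9 in shNEG and a much smaller difference. Its normalized counts were 5038, 4816 and 4976 in the shNEG libraries against 5444, 5547 and 5630 in the shSPINK2 libraries. The groups were apart, and the level was 1.12-fold higher (log2 difference 0.16, SE 0.042, 95% interval 0.08 to 0.25, limma adjusted p = 0.00111). Of all genes tested, 67.1% had a larger absolute difference. The ratio of HOXA9 to HOXA10 within a library, which depends on no size factor, was 0.991, 0.991 and 0.996 in shNEG and 1.33, 1.3 and 1.27 in shSPINK2 (means 0.993 ± 0.00265 and 1.3 ± 0.026, SD, n = 3; exact permutation p = 0.1, the smallest possible). HOXA9 thus went from 30.9% to 36.7% of the counts of the 9 HOXA members (means over libraries), and HOXA10 from 31.2% to 28.2%.

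In the middle of the cluster, HOXA5 and HOXA6 rose by similar amounts and HOXA7 was not called. HOXA5, which favours myeloid over erythroid fate in progenitors, had 3258, 3011 and 3149 normalized counts in shNEG and 3526, 3751 and 3743 in shSPINK2. All shSPINK2 libraries were above all shNEG libraries, with a log2 difference of 0.23 (SE 0.045, limma adjusted p = 6e-05). HOXA6 had 1157, 1036 and 1021 against 1179, 1229 and 1342. Its groups nearly met, at 1157 in shNEG a and 1179 in shSPINK2 a, and the log2 difference was 0.22 (SE 0.058, limma adjusted p = 0.00137). Without a trend on the mean in limma the call of HOXA6 was lost (adjusted p = 0.0506, over a range of 0.00019 to 0.0506), and 4 members in place of 6 were called. HOXA7 had 1044, 1017 and 1027 against 1060, 1025 and 1054. Here the groups overlapped, and the log2 difference was 0.02 with a 95% interval of -0.08 to 0.13 (limma adjusted p = 0.728). That interval lies below the estimate for each of the 6 members that rose. It overlaps the intervals of HOXA10 (0.08 to 0.25), HOXA6 (0.10 to 0.34) and HOXA4 (0.09 to 0.72). The ratio of HOXA6 to HOXA5 was 0.355, 0.344 and 0.324 in shNEG and 0.334, 0.328 and 0.358 in shSPINK2, overlapping ranges, while that of HOXA9 to HOXA7 was 4.78, 4.69 and 4.82 against 6.81, 7.03 and 6.8. HOXA7 and HOXA9 both carry ACTACCT words in their 3′ UTRs, 4 and 2 of them, and HOXA5 carries 1. Any part of these words in the differences was not tested.

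**Figure D2:**
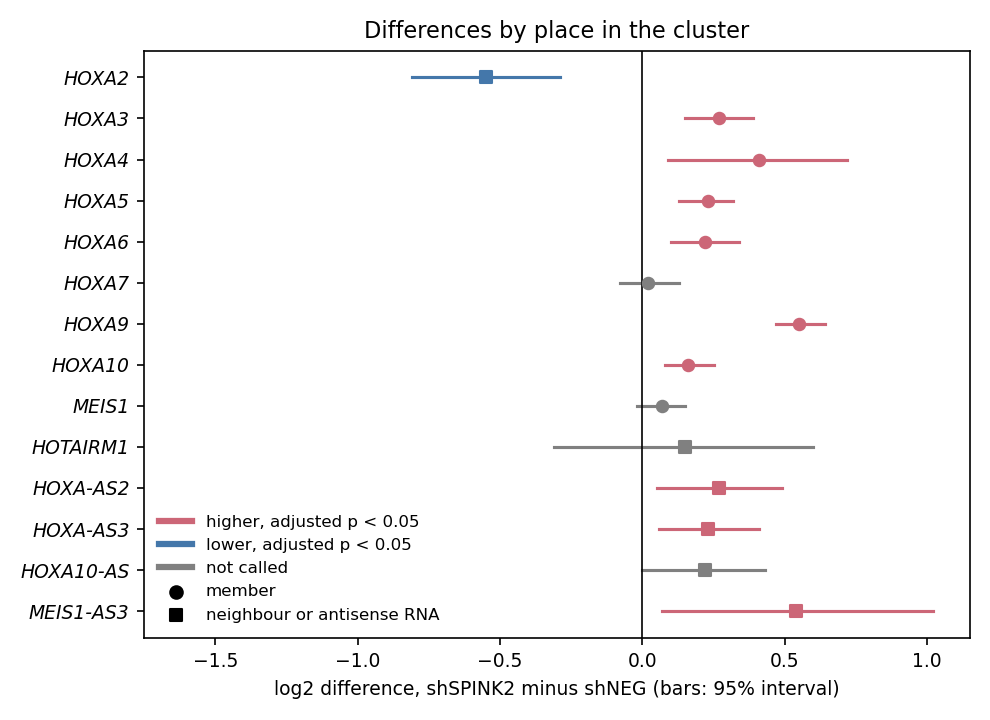
Log2 difference of shSPINK2 minus shNEG (x axis) with its 95% interval for HOXA2 and the tested HOXA members in the order of the cluster, for MEIS1, and for antisense and intergenic RNAs (squares). HOXA9 has the largest value of the members, 0.55, HOXA7 is at 0.02 and HOXA2, a neighbour, is the gene below 0 at -0.55.

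At the 3′ side, HOXA3, an anterior HOX factor, had 729, 686 and 691 normalized counts in shNEG and 821, 826 and 887 in shSPINK2. The groups were apart, and the log2 difference was 0.27 (SE 0.060, limma adjusted p = 0.00024). HOXA4, the lowest of the tested members, had 68.8, 64 and 59.1 against 105, 69.3 and 84.2. The groups came close, with shSPINK2 b at 69.3 beside shNEG a at 68.8, and shSPINK2 a stood highest. The log2 difference was 0.41 (SE 0.155, 95% interval 0.09 to 0.72, limma adjusted p = 0.0251), the widest interval of the members. That call was lost without shNEG c (adjusted p = 0.0867), without shSPINK2 a (log2 difference 0.26, adjusted p = 0.2) and without shSPINK2 c (adjusted p = 0.0526), over a range of 0.00524 to 0.2 with 1 library left out. HOXA3 shares 17.3% and HOXA4 16.5% of its exonic bases with the antisense HOXA-AS2 and HOXA-AS3. On their own strand, HOXA4 shares 31.3% with AC004080.6, and HOXA3 shares 9.29% with AC004080.5 and AC004080.6.

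At the 5′ end the cluster was at the limit of detection. HOXA11, which patterns limbs and the uterus, had 3, 2 and 2 reads in shNEG and 1, 0 and 1 in shSPINK2. HOXA13, the last gene of the cluster, had 2, 4 and 2 reads against 3, 4 and 0. All but 2 of these 12 values were at or below 3 reads, the limit that a count of 0 allows for counting error, so no fold is given. Neither gene was tested in the main comparison. For HOXA11 all shSPINK2 libraries were below all shNEG libraries, the opposite direction to the tested members that rose. With no limit on the mean, the limma adjusted p was 0.122 for HOXA11 and 0.655 for HOXA13.

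MEIS1, the TALE cofactor of HOXA9, stayed near its control level. Its normalized counts were 4141, 4235 and 4180 in the shNEG libraries against 4299, 4291 and 4554 in the shSPINK2 libraries. The groups were apart by a small gap, shSPINK2 c being the highest, but the difference was small and was not called. The means were 4185 ± 47.3 and 4382 ± 150 (SD, n = 3), with a log2 difference of 0.07 (SE 0.043, 95% interval -0.02 to 0.15, limma adjusted p = 0.197). When each library was centred on its median gene instead of scaled by the size factors, the log2 difference was 0.11 and was called (adjusted p = 0.0164, over a range of 0.0164 to 0.303 across the alternatives). The ratio of HOXA9 to MEIS1 within a library was 1.21, 1.13 and 1.19 in shNEG and 1.68, 1.68 and 1.57 in shSPINK2, so the partners differed in their balance in every library whichever scaling was used (exact permutation p = 0.1, the smallest possible). The ratio of MEIS1 to HOXA10 was 0.822, 0.879 and 0.84 against 0.79, 0.774 and 0.809, lower in all 3 shSPINK2 libraries.

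**Figure D3:**
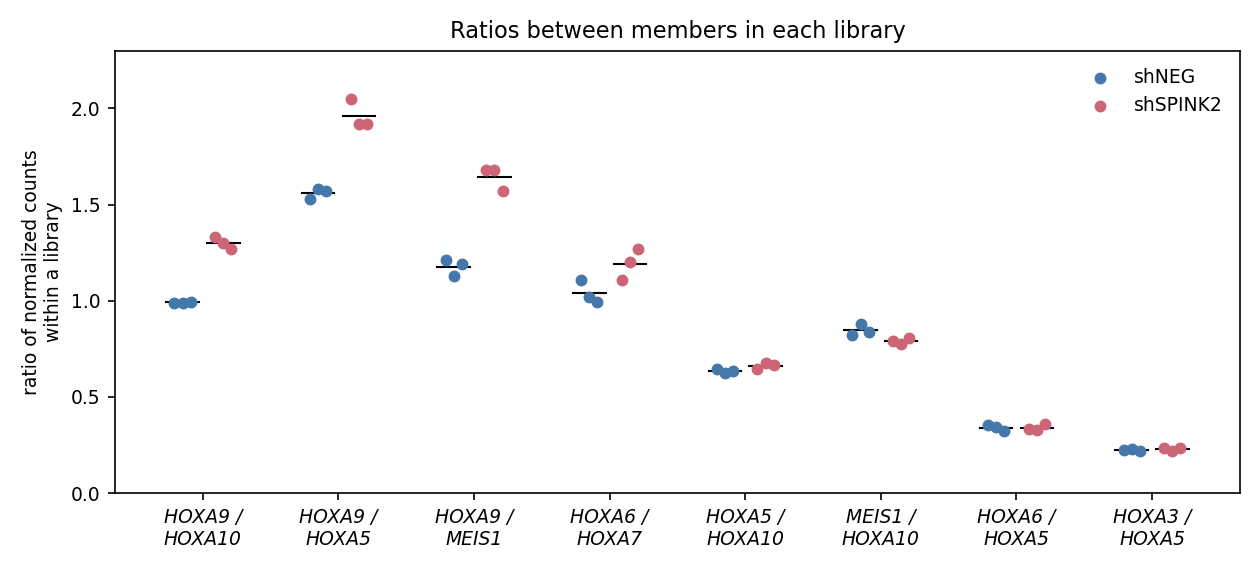
Ratio of the normalized counts of 2 members within each library (y axis, linear from 0; points, 1 library each; black lines, group means). HOXA9 over HOXA10 lies between 0.991 and 0.996 in shNEG and between 1.27 and 1.33 in shSPINK2, while HOXA6 over HOXA5 and HOXA3 over HOXA5 overlap between the groups.

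In shNEG, library a had the highest normalized count for 7 of the 8 tested members, all but MEIS1, and library b the lowest for 5. In shSPINK2, library c was highest for 4 of the 8 (HOXA3, HOXA6, HOXA10 and MEIS1) and library a for 3, while library a was also the lowest for 4 and library b for 3, so no shSPINK2 library was high or low throughout. By likeness over the 6 libraries, the 3 genes closest to HOXA9 among 12401 with a mean of at least 50 were TP53INP2, SELPLG and NOMO1 (Pearson's r of log2 values 0.9998, 0.9997 and 0.9995). A correlation above 0.95 with HOXA9 was common, at 15.5% of those genes, since the points share 2 groups of libraries. Among the members r with HOXA9 was 0.97 for HOXA10, 0.95 for HOXA5 and HOXA3, 0.83 for HOXA6, 0.75 for HOXA4, 0.72 for MEIS1 and 0.57 for HOXA7. The closest to MEIS1 were C18orf32, C1orf123 and TCEAL3 (0.9916, 0.9854 and 0.9832), and 0.266% of the genes were above 0.95.

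HOXA2, a neighbour of the members within the cluster, moved the other way. HOXA2, which lies beside HOXA3, fell from 135, 135 and 118 to 91.9, 75.3 and 97.4 (log2 difference -0.55, SE 0.129, limma adjusted p = 0.00041), a direction that none of the 8 tested members had in this fit. EVX1, beyond HOXA13, was listed at 0. Of the RNAs transcribed against or between the genes, HOXA-AS2 (log2 difference 0.27, limma adjusted p = 0.0341) and HOXA-AS3 (0.23, limma adjusted p = 0.02) rose, although the library values of both groups overlapped. HOXA10-AS (0.22, limma adjusted p = 0.0774) and HOTAIRM1 (0.15, limma adjusted p = 0.598) did not pass. HOXA11-AS and HOTTIP had means under 10. HOXA-AS3 had 475, 487 and 373 normalized counts against 1044, 1017 and 1027 for HOXA7 in shNEG. Both use the same bases in part, and how reads there were assigned is not known. The value of HOXA7 may therefore hold reads of either gene or lack reads of its own.

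The other genes of the pathway were taken from lists of partners, regulators and targets. Of 8 tested genes on the list of TALE partners, 3 rose and 3 fell (37.5% each way, median log2 difference -0.17). Of all genes tested, 28.5% rose and 29.9% fell. The 3 that rose were PBXIP1, TGIF1 and TGIF2. The 3 that fell were PBX3, PKNOX1 and MEIS2, so each PBX, PKNOX or MEIS gene called on this list fell. PBX2 and PBX4 were not called. PBXIP1, which binds PBX proteins and keeps them from DNA, rose from 1259 ± 82.5 to 2640 ± 134 (SD, n = 3; log2 difference 1.07, limma adjusted p = 1.2e-18), and TGIF1 by 0.35. PBX3, a PBX partner of HOXA9 in AML, fell from 810 ± 38.1 to 538 ± 20.7 (log2 difference -0.59, limma adjusted p = 5.2e-10), and MEIS2 by 0.37. So HOXA9 rose while PBX3 fell and MEIS1 was not called. Of the 28 HOX genes of the other 3 clusters, 6 reached a mean of 10 and none of these was called (0 of 6 by limma, with 0 at an unadjusted p under 0.05 and 0 with precision weights). The highest was HOXC6 at 114 and 96.1, below HOXA3 and above HOXA4. All shSPINK2 libraries of HOXC6 (90.1 to 99.7) were below all its shNEG libraries (113 to 116), with a limma adjusted p of 0.0831.

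Among genes listed as regulators of the cluster, of 23 tested genes listed as activators 5 rose and 15 fell (21.7% and 65.2%, median log2 difference -0.21). Whether each listed gene acts on the cluster in these cells was not tested. Of 18 tested genes listed as repressors 5 rose and 11 fell (27.8% and 61.1%, median -0.26). The falls on the repressor list include KDM6A (-0.33) and CTCF (-0.47), whose place as repressors is open to doubt. Beside 28.5% and 29.9% of all genes tested, the shares that fell were higher in both lists. The share that rose was lower for the activators and near that of all genes for the repressors. Among activators, RBBP5, a core subunit of the KMT2A complexes, fell from 2082 ± 63.4 to 1175 ± 37.8 (log2 difference -0.83) and DOT1L, the H3K79 methyltransferase, from 5777 ± 118 to 3703 ± 161 (-0.64, limma adjusted p = 1e-14), while the methyltransferase ASH1L (0.38) and AFF4 (0.24) rose. KMT2A itself fell by 0.14 on the log2 scale and MEN1, its partner menin, was at 0.01 (limma adjusted p = 0.825). The groups of KMT2A overlapped, with shNEG b at 2679 and shSPINK2 b at 2689 (limma adjusted p = 0.0185). Among repressors, the Polycomb subunits CBX2 (-0.92) and EZH2 (-0.71) fell most and CBX7 (0.84) and JARID2 (0.34) rose most. NPM1, BMI1 and CEBPA, of the lists here, could not be solved and have no comparison.

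Of 17 tested genes known as targets of HOXA9 and MEIS1, 5 rose, 6 fell and 6 were not called (median log2 difference 0.02). The shares that rose and fell, 29.4% and 35.3%, were near those of all genes tested, 28.5% and 29.9%. ERG (0.47) and LMO2 (0.44), both transcription regulators of blood stem cells, rose most. ERG was low, with group means of 40.3 and 56.5 (SE 0.176, limma adjusted p = 0.0215). LMO2 had means of 8795 and 11915 (SE 0.043, limma adjusted p = 8.1e-11). FLT3, a receptor whose gene MEIS1 and HOXA9 activate, rose by 0.30 and MYB by 0.31. PIM1, a survival kinase, fell from 575 ± 34.3 to 216 ± 6.85 (log2 difference -1.41, limma adjusted p = 2.6e-17) and the cyclin gene CCND3 from 6895 ± 112 to 3045 ± 80.5 (-1.18). SOX4 fell by 0.26 and CDK6 by 0.12, and BCL2 was at 0.09 (limma adjusted p = 0.0906). The groups of CDK6 overlapped, with shSPINK2 b at 13383 and the shNEG libraries at 13180 to 13374 (limma adjusted p = 0.0274).

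**Figure D4:**
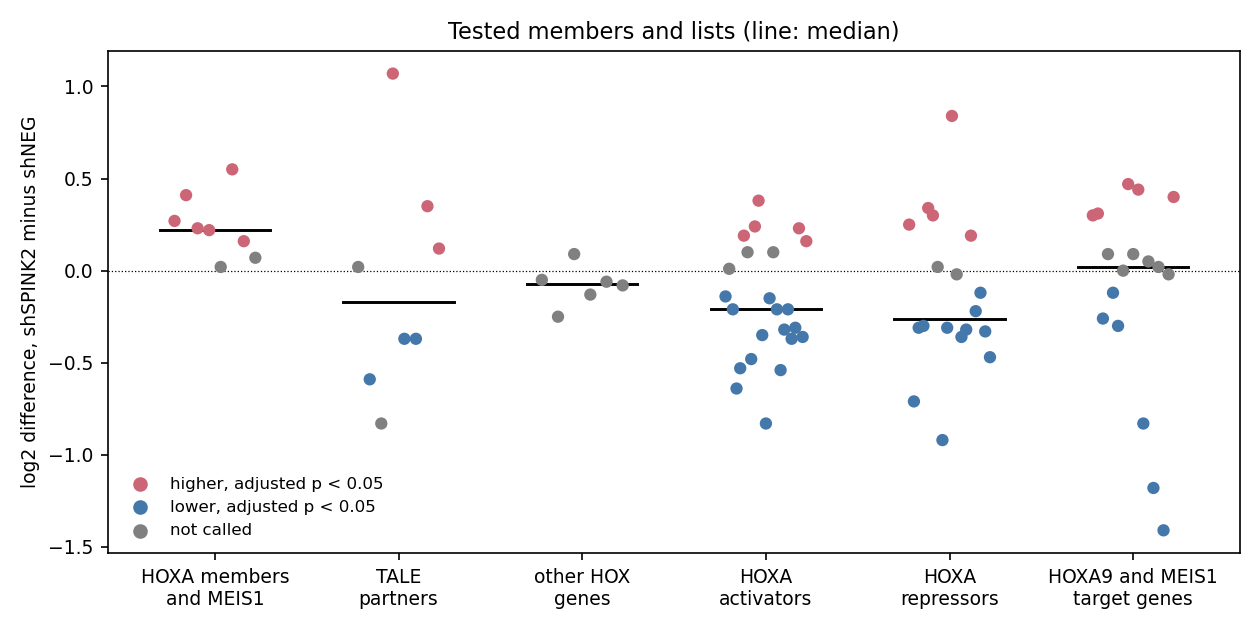
Log2 difference of shSPINK2 minus shNEG (y axis) of each tested gene of the members and of the 5 lists (points), with the median of each as a line. The members' median is 0.22, those of the activators and repressors are -0.21 and -0.26, and no point of the other HOX genes is coloured as called.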

How the data were processed

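The 6 libraries (3 shNEG, 3 shSPINK2) were sequenced by the authors as paired reads of 150 bases. Per the methods and the labels they were aligned to hg38 (GRCh38) with STAR 2.7.11, counted per gene with featureCounts and normalized and compared with DESeq2 1.40.0. The annotation release and the strand setting of the counting are not given in the sources used here.

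The deposited table holds 1 signal value per gene, the authors' mean of counts divided by size factors over all 6 libraries, and the columns of the authors' own comparison: a deposited log2 fold change, its standard error, a statistic, p-values and a status. It has 0 columns of values per sample. The fold change and its standard error served only to decode reads: the sign of genes with 1 read in 1 library gave the group of each size factor, and both values picked the whole-number solution. Since the solution is tied to them, the results are not independent of the authors' comparison. None of their values is printed.

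Genes with 1 read in 1 library (546 to 662 per library) gave the 6 size factors, 0.9854 to 1.0332. For every other gene, whole reads whose weighted sum equals the mean to its 15 digits were searched by lattice reduction and checked against a negative binomial fit of the 2 groups. Every gene with a mean under 10000 was solved, and 192 of the highest, with 24.2% of all mean counts, were not and were left out. The search was tested on data made with known reads.

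Log2(reads / size factor + 1) was fitted with limma 3.58.1 (R 4.3.3, trend on the mean, group term only, all 6 libraries, two-sided) for 15939 genes with a mean of at least 10, with Benjamini-Hochberg adjustment and a threshold of 0.05, so differences of low genes are understated. The fit was tested on simulated data. Exact permutation tests were two-sided over 20 labelings. The recovered libraries carry no replicate number. Gene models were those of GENCODE 44 (57577 of 63236 gene IDs matched), and promoters and microRNAs those of RefSeq (GRCh38.p14). The solved reads came to 28796443 to 29659592 a library.

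The members and lists were chosen with earlier results of these data known. Named were the 10 members, SPINK2, neighbours and antisense RNAs of the cluster (1 neighbour and 1 marker are not reported here), per list the 2 largest rises and falls that passed, and 11 regulators and targets fixed by symbol. MEIS1-AS3 was added after its values were seen. Alternatives were other pseudocounts (0.5 and 5), limits on the mean, median centring, limma without a trend, precision weights (voom), a log2 limit of 1, each library left out and a wider search for the members' reads.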

Additional observations from a re-analysis of the deposited data

How the results depend on the processing

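Of 291 recomputed values, 279 kept their direction and side of the threshold (or stayed within 1.5 times for a count), 12 did not and 0 reversed. The log2 difference of HOXA4 stayed at 0.41 but missed the threshold with no limit on the mean (adjusted p = 0.0748) and without a trend (adjusted p = 0.0734), over a range of 0.0175 to 0.0748. With 1 library left out it ran from 0.26 to 0.55. HOXA6 stayed at 0.22 but missed without a trend (adjusted p = 0.0506, over a range of 0.00019 to 0.0506). MEIS1 was called under median centring at 0.11, a scaling that shifted the median of all genes by 0.045. With an absolute log2 difference over 1 required, 276 genes were higher and 460 lower of all tested, against 4544 and 4759, and 0 members were higher, against 6. Without a trend 1 other HOX gene, HOXC6, was lower, and under median centring 8 targets of HOXA9 and MEIS1 were higher, against 5. With 1 library left out, 5 to 6 members were higher, with no limit on the mean 5, without a trend 4 and under median centring 7. The cause of these changes was not tested, except that the log2 limit and the leaving out of libraries act by their construction. HOXA9, HOXA5, HOXA3 and HOXA10 were called under all 7 alternatives of the fit and with each library left out, HOXA9 between 0.53 and 0.60. The wider search gave the same reads for all 10 members. No paired analysis was possible because the recovered libraries carry no replicate numbers. Depth limits HOXA11 and HOXA13, which had at most 4 reads in a library.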

Other observations

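The antisense RNA at the start of MEIS1, MEIS1-AS3, rose while MEIS1 was not called. Its normalized counts were 25.9, 17 and 25 in the shNEG libraries against 29, 33.7 and 36.5 in the shSPINK2 libraries, a log2 difference of 0.54 (SE 0.234, limma adjusted p = 0.0458). It shares 19 exonic bases with MEIS1, and its level was under 1% of that of MEIS1 in every library. It was singled out after its values were seen. MEIS1-AS2, the other antisense RNA there, had 1.98 to 9.13 normalized counts and was not tested.

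MECOM, a transcription factor gene of blood stem cells, fell from 21.9, 34 and 23 normalized counts in shNEG to 3.87, 4.95 and 3.04 in shSPINK2 (log2 difference -2.45, SE 0.353, limma adjusted p = 2.7e-07). The 8 tested members differed by at most 0.55 in absolute size.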
